A study of Mus musculus with 12 samples.

Results

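The 9 genes described here are regulators that set or restrain the neuroendocrine and neuronal identity of a cell: the transcription factors Insm1, Neurod1, Neurod4, Myt1, Myt1l and St18, the repressor Rest, and the RNA-binding proteins Celf3 and Celf4. They were read as every probe set that the annotation of the array pairs with 1 of these symbols, which gave 24 probe sets of 45037 that are not array controls, and 9 genes of 18193. The series holds 12 Affymetrix arrays, each of a single tumor from a mouse of the genotype LSL-MYCN;hGFAP-Cre. The comparison was between 9 pancreatic tumors (numbers 1 to 5 and 9 to 12) and 3 tumors of the pituitary site (numbers 6, 7 and 8), which carry the tissue label brain. All values are log2 signals as deposited, so that a difference of 1 stands for a signal 2 times as high.

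All 12 tumors shared the same alleles: a MYCN transgene behind a floxed stop cassette, and Cre recombinase under the human GFAP promoter, which is active in neural progenitors, glia and some neuroendocrine cells. The mice had a mixed strain background, the tumors were untreated and excised after death, and no source used here gives the age of each mouse. Some mice of the line carried tumors at both sites, and the labels do not say which arrays share a mouse. Pancreatic and pituitary tumors may therefore come from the same animal. The p-values treat the 12 tumors as independent, which tumors of the same mouse would not be. Normal pancreas and normal pituitary were not analysed here, so no level below is a change from normal tissue. Each array measured a whole piece of tumor, in which fewer cells of a type and less RNA per cell cannot be told apart.

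The site labels were checked against marker genes. Of 14 measured anterior pituitary markers 10 were lower in the pancreatic tumors than in the pituitary tumors, among them the hormones Prl, Gh and Pomc, and of 10 measured islet markers 5 were higher in the pancreatic tumors, among them Gcg and Sst. Pancreatic tumor 2 stood apart from the others of its site, with a correlation of 0.803 to 0.902 with them over all probe sets, against 0.872 to 0.985 among the other 8. It also held the highest signal of all 6 hepatocyte markers, with Alb at 15.01, and their mean was 14.41 there, 11.79 and 12.09 in tumors 3 and 4, and 6.05 to 8.16 in the other 6 pancreatic tumors. Among the pituitary tumors, numbers 6 and 8 had more signal of brain tissue genes than number 7. The mean of 8 neuron markers was 4.99 to 6.26 in the pancreatic tumors, and among the pituitary tumors it was 9.56 in tumor 6 and 9.27 in tumor 8 but 5.73 in tumor 7, where Gad1, the enzyme that makes GABA, read 3.05, although Slc17a6, a glutamate transporter of neurons, was at 8.53 there. Results that these tumors touch are given below with and without them.

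The proteins behind these genes work in layers. REST binds a sequence element named RE1 and, with cofactors of the CoREST and SIN3 complexes, keeps neuronal genes off in cells that are not neurons. Basic helix-loop-helix (bHLH) factors such as NEUROD1 and NEUROD4 bind E-box sequences and switch on neuronal and endocrine genes, and INSM1, a zinc-finger factor, is needed in the mouse for the maturation of islet and pituitary endocrine cells. MYT1, MYT1L and ST18 form a zinc-finger family that in mouse islets and neurons helps to hold other cell fates off. CELF proteins bind RNA and set its splicing, stability and translation in neurons.

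Between the sites, 1 of the 9 genes passed the test, which was limma with Benjamini-Hochberg adjustment over all 45037 probe sets at a threshold of 0.05. Neurod4 was lower in the pancreatic tumors, and no gene of the 9 was higher. Over all genes 4.5% were called lower in the pancreatic tumors and 1.61% higher, and 1 call among 9 genes is too small a count to be set apart from this background. At an unadjusted p under 0.05, 0 of the 9 were higher and 2, Neurod4 and Celf4, were lower, against 9.36% higher and 14.4% lower over all genes, and without moderation of the variance the calls were again 0 higher and 1 lower. The median difference of the 9 genes was -0.01, against 0.03 over all genes. By probe set, 2 of 24 were called lower, both of Neurod4, and 0 were called higher, against 3.45% and 1.18% of all probe sets.

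**Figure D1:**
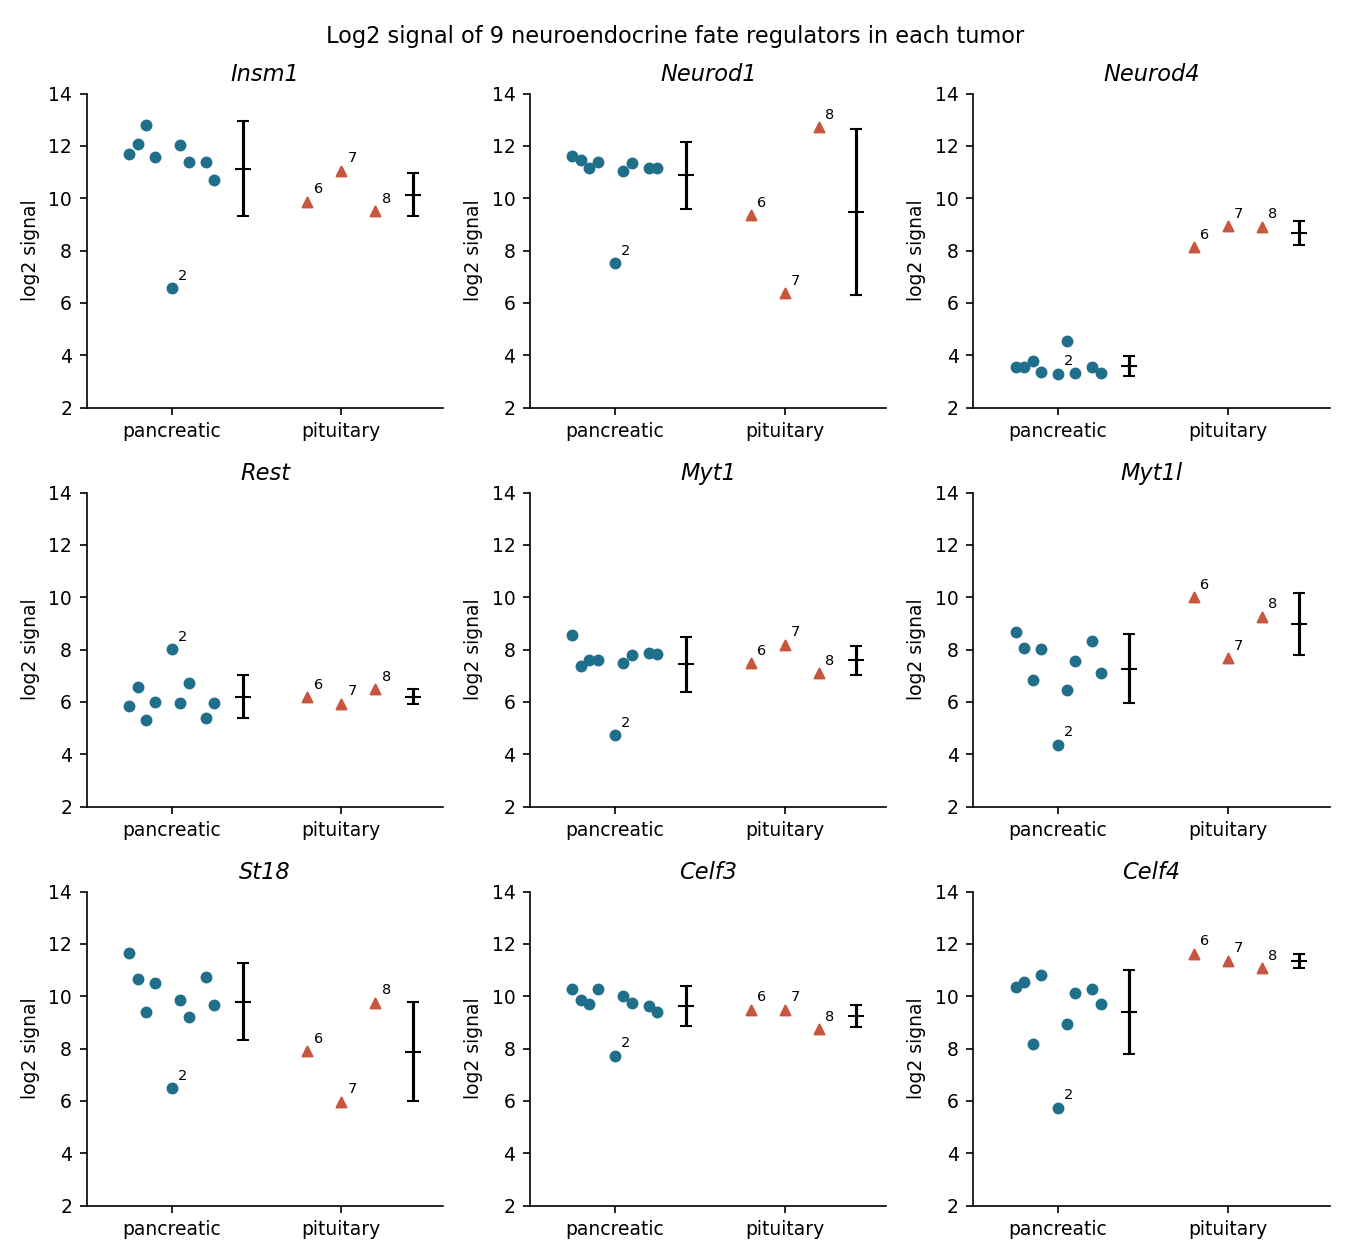
Log2 signal of the probe set that represents each of the 9 genes (of a gene's probe sets, the brightest by the mean over both groups), for 9 pancreatic tumors (circles) and 3 pituitary tumors (triangles), with the mean and SD of each group as a bar beside its points. Pancreatic tumor 2 and the pituitary tumors are numbered: tumor 2 is the lowest pancreatic tumor for 8 genes and the highest for Rest, and only for Neurod4 and Celf4 do the groups not overlap.

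Neurod4 gave the clearest separation. This bHLH factor acts together with its relatives in the mouse retina, hindbrain and anterior pituitary, where it takes part in the formation of hormone cells. RefSeq places it at chr10:130268152-130280254 (GRCm38.p6). On probe set 1418054_at, which represents the gene, the pancreatic tumors read 3.30 at the lowest, 3.55 at the median and 4.56 at the highest. The pituitary tumors read 8.13, 8.94 and 8.91 in tumors 6, 7 and 8. Every pancreatic tumor was below every pituitary tumor, and by more than the range within either group. The mean was 3.59 ± 0.40 (SD, n = 9) in pancreatic tumors and 8.66 ± 0.46 (SD, n = 3) in pituitary tumors, a difference of -5.07 (SE 0.26, 95% interval -5.64 to -4.49, adjusted p = 4.79e-07, limma). All 9 pancreatic values lay below the median of their own array (5.45 to 5.69), where background makes up an unknown share of the signal, so the size of the difference is less sure than its direction.

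A second Neurod4 probe set gave the same picture. On 1436694_s_at the pancreatic tumors lay between 3.04 and 3.68, and pituitary tumors 6, 7 and 8 read 7.65, 8.93 and 8.48 (difference -4.98, SE 0.23, adjusted p = 1.54e-07, limma). The third, 1418055_at, was low on every array, with pancreatic tumors at 2.71 to 3.18 and pituitary tumors at 2.67 to 3.21, and is left out of the comparison. Tumor 7, the pituitary tumor with the least signal of brain markers, had the highest Neurod4 signal of the 3 on both responding probe sets. With tumor 7 as the sole pituitary tumor, the difference on 1418054_at was -5.35 (adjusted p = 5.54e-05, limma, with the spread of the pancreatic tumors assumed for it). When any 1 of the 12 tumors was left out, it stayed between -5.33 and -4.93, with adjusted p from 1.03e-07 to 6.46e-06.

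Neurod1, the closest relative on the list, is a bHLH factor of islet cells, where it activates the insulin gene, and of pituitary corticotrophs and many neurons, and lies at chr2:79452637-79456636. On 1426413_at the signal in pancreatic tumors was lowest at 7.52, in tumor 2, with a median of 11.15 and a highest value of 11.61. Pituitary tumors 6, 7 and 8 read 9.35, 6.37 and 12.71. Apart from tumor 2 the pancreatic tumors were close together, at 11.04 to 11.61 (SD 0.20, n = 8), whereas the 3 pituitary tumors spread over more than 6 log2 units on both sides of them. The means, 10.87 ± 1.27 (SD, n = 9) in pancreatic tumors and 9.48 ± 3.17 (SD, n = 3) in pituitary tumors, did not differ beyond this spread (difference 1.39, SE 1.11, 95% interval -1.01 to 3.80, adjusted p = 0.523, limma). The difference turned to -0.16 without pituitary tumor 7. On 1426412_at the same tumors were low, with 6.83 in pancreatic tumor 2 and 10.67 to 11.22 in the other 8 pancreatic tumors, and 8.50, 5.14 and 11.86 in pituitary tumors 6, 7 and 8 (difference 1.96, adjusted p = 0.392, limma).

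The upstream sequences of these 2 genes are printed because Neurod4 lay below the array median in all 9 pancreatic tumors and Neurod1 above it in all 9. Each is the 250 bases before the transcription start, from RefSeq on GRCm38.p6, 5′ to 3′ on the minus strand, from which both genes are transcribed. Capitals mark an E-box, the letters CANNTG, searched on both strands.
Neurod1 chr2:79456637-79456886: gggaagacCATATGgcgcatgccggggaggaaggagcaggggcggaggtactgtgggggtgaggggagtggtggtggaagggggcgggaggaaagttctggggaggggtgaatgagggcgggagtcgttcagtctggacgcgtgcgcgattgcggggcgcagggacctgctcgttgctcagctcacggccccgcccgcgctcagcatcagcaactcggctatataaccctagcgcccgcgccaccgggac
Neurod4 chr10:130280255-130280504: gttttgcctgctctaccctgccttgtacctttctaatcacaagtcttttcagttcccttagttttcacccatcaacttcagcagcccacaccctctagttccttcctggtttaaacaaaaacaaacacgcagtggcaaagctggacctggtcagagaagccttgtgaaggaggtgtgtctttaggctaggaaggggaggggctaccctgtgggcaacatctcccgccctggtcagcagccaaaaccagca
The Neurod1 window held 1 E-box, CATATG, starting 242 bases before the transcription start, and had a GC content of 67.6%. The Neurod4 window held 0 and had a GC content of 51.2%. Over 32851 promoter windows of this length, 66.2% held at least 1 E-box, and of 18 windows that matched 5 of the 9 genes (Neurod1, Neurod4, Myt1, Myt1l and Celf3), 14 did. Several of these windows belong to 1 gene and overlap each other. The RE1 consensus, searched on both strands with up to 4 mismatches, were found in 0.469% of all windows and in 0 of the 18. A match is a description of letters only.

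Insm1 was above the array median in all 12 tumors, and 8 of the 9 pancreatic tumors had a signal of 10.70 or more. The protein is a repressor zinc-finger factor that recruits the histone demethylase KDM1A, and its antibody stain is a marker of neuroendocrine tumors. The gene lies at chr2:146221997-146225020. On 1455865_at the pancreatic tumors read 6.56 at the lowest, in tumor 2, 11.58 at the median and 12.79 at the highest, in tumor 11. Pituitary tumors 6, 7 and 8 read 9.87, 11.05 and 9.50. Of the 9 pancreatic tumors 7 lay above every pituitary tumor, and tumor 2 lay below all of them. The mean was 11.13 ± 1.81 (SD, n = 9) in pancreatic tumors and 10.14 ± 0.81 (SD, n = 3) in pituitary tumors, a difference of 0.99 (SE 1.01, 95% interval -1.21 to 3.19, adjusted p = 0.628, limma), which was within the spread. Without tumor 2 it was 1.56 (SE 0.41, 95% interval 0.66 to 2.46, adjusted p = 0.0480, limma), and Insm1 then passed the threshold, as did 2.74% of all genes in that direction.

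The second Insm1 probe set did not pass in either case. On 1421399_at pancreatic tumor 2 read 6.62 and the other 8 pancreatic tumors 9.02 to 12.93, and pituitary tumors 6, 7 and 8 read 9.22, 9.92 and 8.73. The difference was 1.39 (adjusted p = 0.503, limma) with all tumors and 1.89 (adjusted p = 0.136, limma) without tumor 2. The order of the tumors was alike on both probe sets at the ends, with tumor 11 highest and tumor 2 lowest.

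The zinc-finger family of Myt1, Myt1l and St18 had differences of unlike sign between the sites, and none of them passed the test with all 12 tumors. The pancreatic minus pituitary difference was 1.92 for St18, which is expressed in mouse islets, -1.70 for Myt1l, the member of mature neurons, and -0.16 for Myt1, which takes part in islet formation in the mouse. On St18 probe set 1455123_at the pancreatic tumors read 6.48 at the lowest, in tumor 2, 9.84 at the median and 11.63 at the highest. Pituitary tumors 6, 7 and 8 read 7.90, 5.97 and 9.75. The groups overlapped, with 5 of 9 pancreatic tumors above the highest pituitary tumor. The mean was 9.79 ± 1.46 (SD, n = 9) in pancreatic tumors and 7.88 ± 1.89 (SD, n = 3) in pituitary tumors (difference 1.92, SE 0.95, 95% interval -0.15 to 3.98, adjusted p = 0.293, limma).

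The other St18 probe set separated the sites more fully. On 1436793_at tumor 2 read 6.07 and the other 8 pancreatic tumors 8.63 to 10.66, all above the pituitary tumors at 6.62, 6.51 and 8.50 in numbers 6, 7 and 8. The difference was 1.95 (SE 0.78, adjusted p = 0.189, limma) with all tumors. Without tumor 2 it was 2.33 on each of the 2 probe sets, with adjusted p = 0.0163 on 1436793_at and 0.0756 on 1455123_at (limma). Without pituitary tumor 7, the difference on 1455123_at was 0.97 (adjusted p = 0.660, limma), and with any 1 tumor left out it lay between 0.97 and 2.86. With arrays weighted by their fit, so that a deviating array counts less, St18 was also called on both, at 2.37 (adjusted p = 0.0106, limma) and 2.44 (adjusted p = 0.0387, limma).

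Myt1l had a negative difference. On 1436483_at the pancreatic tumors read 4.37 at the lowest, in tumor 2, 7.57 at the median and 8.67 at the highest, in tumor 1. Pituitary tumors 6, 7 and 8 read 10.00, 7.67 and 9.25. Pituitary tumors 6 and 8 were above every pancreatic tumor, and tumor 7 fell inside the pancreatic range. The mean was 7.27 ± 1.31 (SD, n = 9) in pancreatic tumors and 8.97 ± 1.19 (SD, n = 3) in pituitary tumors (difference -1.70, SE 0.78, 95% interval -3.41 to 0.01, adjusted p = 0.259, limma). With tumor 7 as the sole pituitary tumor, the difference was -0.40. Probe set 1421175_at gave -1.71 (adjusted p = 0.117, limma), with 5.32 to 8.27 in pancreatic tumors and 9.82, 7.92 and 8.96 in pituitary tumors 6, 7 and 8, and it passed the threshold with array weights (-1.75, adjusted p = 0.0250, limma). Of the other Myt1l probe sets, 1429738_at gave -0.65 (adjusted p = 0.286, limma), 1430599_at gave 0.25 (adjusted p = 0.407, limma) and 1460111_at was low on all arrays.

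**Figure D2:**
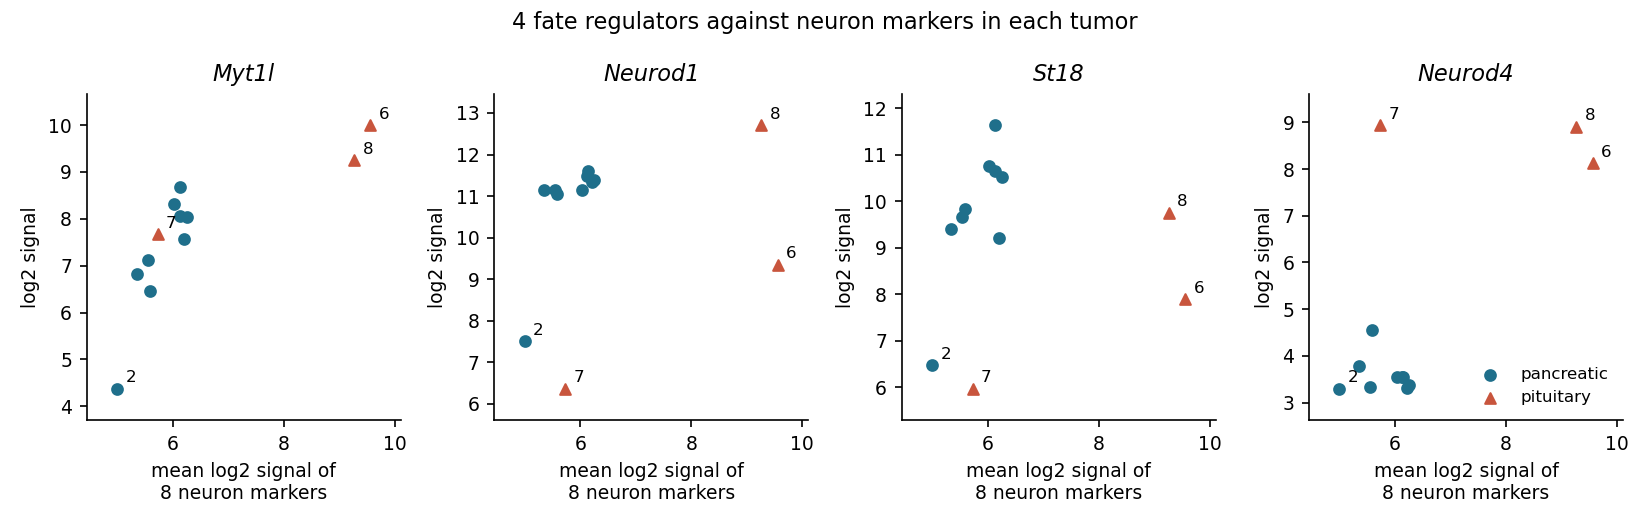
Log2 signal of Myt1l, Neurod1, St18 and Neurod4 (vertical) against the mean log2 signal of 8 neuron markers (horizontal) in 9 pancreatic (circles) and 3 pituitary tumors (triangles). Tumors 6 and 8 carry neuron markers at 9.56 and 9.27 and tumor 7 at 5.73: tumor 7 is the lowest of the 3 for Myt1l, Neurod1 and St18 and the highest for Neurod4.

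The 3 pituitary tumors differed from each other for several of the 9 genes. Neuron, astrocyte and oligodendrocyte markers were high in tumors 6 and 8 (means of 9.56 and 9.27, 11.24 and 11.17, and 9.23 and 8.54) and lower in tumor 7 (5.73, 7.12 and 5.33). Summed on the linear scale, the 8 neuron markers came to 8.26 to 10.86 log2 units in the pancreatic tumors and to 13.87, 9.48 and 13.73 in pituitary tumors 6, 7 and 8. On the probe set that represents each gene, Myt1l had the same order as the neuron markers, highest in tumor 6 and lowest in tumor 7. Neurod1, St18 and Rest were also lowest in tumor 7 among the pituitary tumors but highest in tumor 8, while Neurod4, Insm1 and Myt1 had their highest pituitary value in tumor 7. The part of brain tissue in these values was not tested.

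For Myt1 the means of the sites lay close together. On 1422773_at the pancreatic tumors read 4.74 at the lowest, in tumor 2, 7.61 at the median and 8.56 at the highest, and pituitary tumors 6, 7 and 8 read 7.47, 8.19 and 7.11. The mean was 7.43 ± 1.07 (SD, n = 9) in pancreatic tumors and 7.59 ± 0.55 (SD, n = 3) in pituitary tumors (difference -0.16, SE 0.60, 95% interval -1.47 to 1.16, adjusted p = 0.913, limma), and its sign turned to 0.18 without tumor 2. The interval allows a difference of more than 1 log2 unit in either direction. On 1439365_at tumor 5 stood alone at 6.27, whereas the other pancreatic tumors read 3.15 to 3.72 and the pituitary tumors 3.04 to 3.41.

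The RNA-binding proteins were measured at both sites. Celf4 was lower in every pancreatic tumor than in every pituitary tumor on 2 of its 3 probe sets, but the difference did not pass the adjusted test, and that of Celf3 was within the spread. On Celf4 probe set 1452240_at the pancreatic tumors read 5.75 at the lowest, in tumor 2, 10.12 at the median and 10.81 at the highest. Pituitary tumors 6, 7 and 8 read 11.62, 11.35 and 11.07. The groups did not overlap, which held for 5.41% of all genes in this direction. The mean was 9.41 ± 1.60 (SD, n = 9) in pancreatic tumors and 11.35 ± 0.28 (SD, n = 3) in pituitary tumors (difference -1.94, SE 0.88, 95% interval -3.85 to -0.03, adjusted p = 0.248, limma). Tumors 11 and 12 were also low among the pancreatic tumors, at 8.19 and 8.95. Without tumor 2 the difference was smaller, -1.49, with adjusted p = 0.102 (limma). Pituitary tumor 7, with the least signal of brain markers, lay between tumors 6 and 8.

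The other Celf4 probe sets ran the same way. On 1426930_at pancreatic tumors lay at 5.81 to 10.38 and pituitary tumors at 10.79 to 11.47 (difference -1.99, adjusted p = 0.191, limma, and -1.57 with adjusted p = 0.0571 without tumor 2). On 1426929_at they lay at 6.32 to 10.41 and 10.25 to 11.04 (difference -1.26, adjusted p = 0.336, limma), and only pancreatic tumor 10 reached into the pituitary range. Celf3 has 1 probe set, 1452851_at, which read 7.73 at the lowest, in tumor 2, 9.73 at the median and 10.29 at the highest in pancreatic tumors, and 9.49, 9.49 and 8.75 in pituitary tumors 6, 7 and 8. Its mean was 9.62 ± 0.77 (SD, n = 9) in pancreatic tumors and 9.24 ± 0.43 (SD, n = 3) in pituitary tumors (difference 0.38, SE 0.44, 95% interval -0.59 to 1.34, adjusted p = 0.675, limma).

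**Figure D3:**
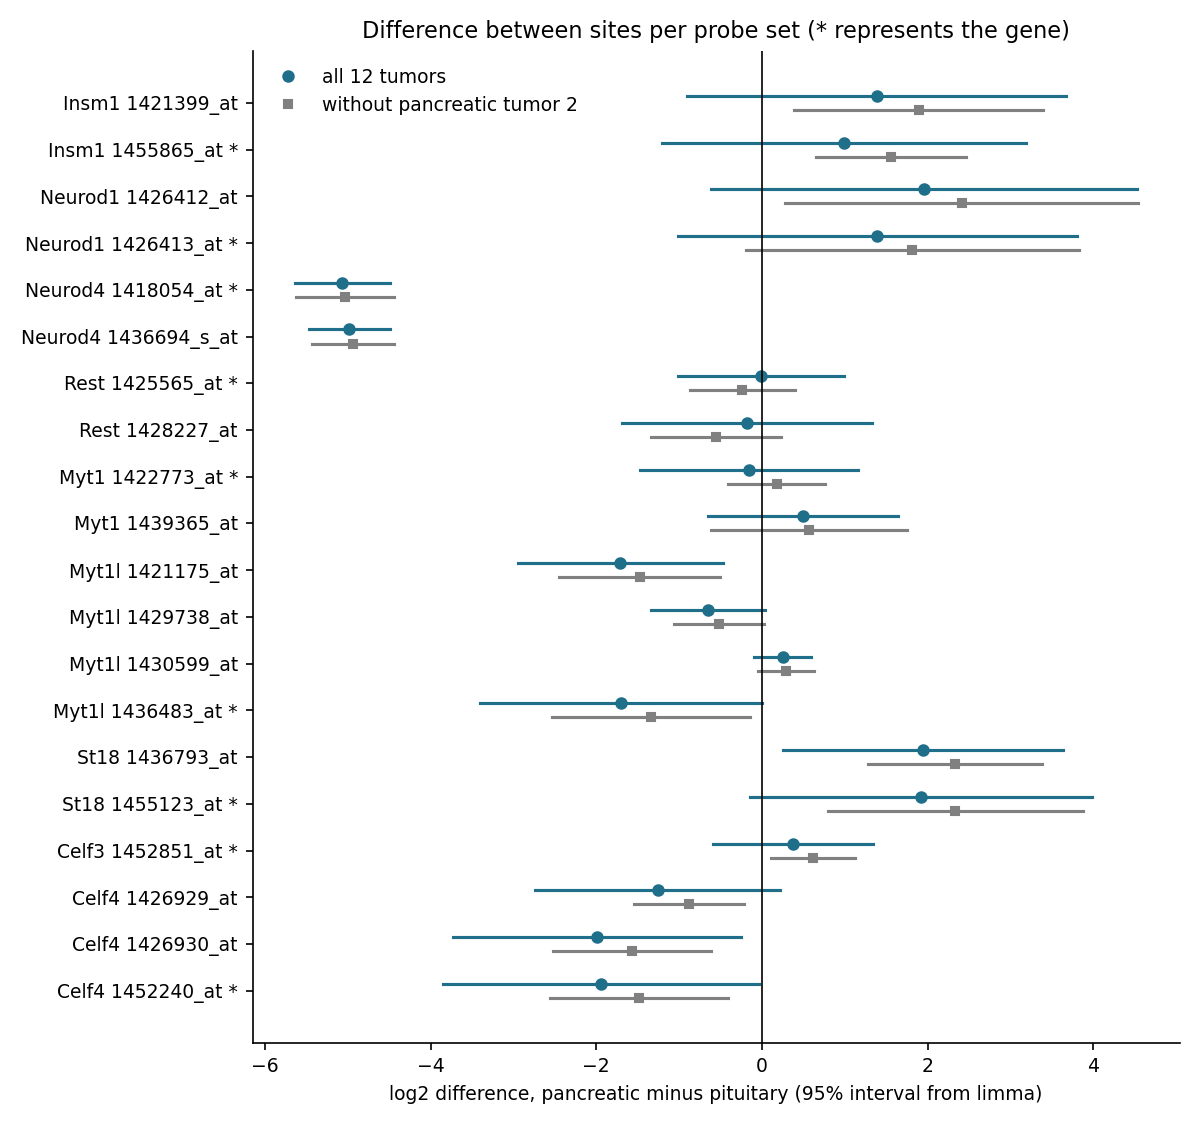
Difference in log2 signal, pancreatic minus pituitary, for the 20 probe sets of the 9 genes that lay above the array median in at least 1 tumor, with 95% intervals from limma, for all 12 tumors (circles) and without pancreatic tumor 2 (squares). An asterisk marks the probe set that represents a gene. The 2 Neurod4 probe sets lie near -5 in both fits, and the intervals of most others narrow without tumor 2.

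Rest, the repressor, lies at chr5:77265494-77286432, and its signal was near the array median at both sites. On 1425565_at the pancreatic tumors read 5.31 at the lowest, in tumor 11, 5.97 at the median and 8.02 at the highest, in tumor 2. Pituitary tumors 6, 7 and 8 read 6.19, 5.94 and 6.48. Apart from tumor 2 the pancreatic tumors, at 5.31 to 6.71, spread to both sides of the pituitary tumors, and the means of 6.19 ± 0.82 (SD, n = 9) in pancreatic tumors and 6.20 ± 0.27 (SD, n = 3) in pituitary tumors differed by -0.01 (SE 0.46, 95% interval -1.01 to 1.00, adjusted p = 0.995, limma). On 1428227_at tumor 2 was again far above the rest, at 8.15 against 3.98 to 5.67 in the other 8 pancreatic tumors, and pituitary tumors 6, 7 and 8 read 5.25, 5.35 and 5.49 (difference -0.18, adjusted p = 0.911, limma). The remaining Rest probe sets, 1425564_at and 1425566_at, were low on all arrays, and on 1425566_at tumor 2 was also the highest, at 5.29 against 3.99 to 4.31 in the other pancreatic tumors.

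Pancreatic tumor 2 stood apart for these genes. It was the lowest of the 9 for 8 genes and the highest for Rest, whereas 19.7% of all genes had their lowest pancreatic value in tumor 2. Its signal minus the median of the other 8 was -5.09 for Insm1, -4.44 for Celf4, -3.73 for Neurod1, -3.70 for St18, -3.43 for Myt1l, -2.97 for Myt1 and -2.07 for Celf3, and 2.06 for Rest. For Neurod4, low in every pancreatic tumor, it was -0.25. The median over the 9 genes was -3.43, against 0.03 over all genes. These are values of a single tumor, with no replicate and no test.

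**Figure D4:**
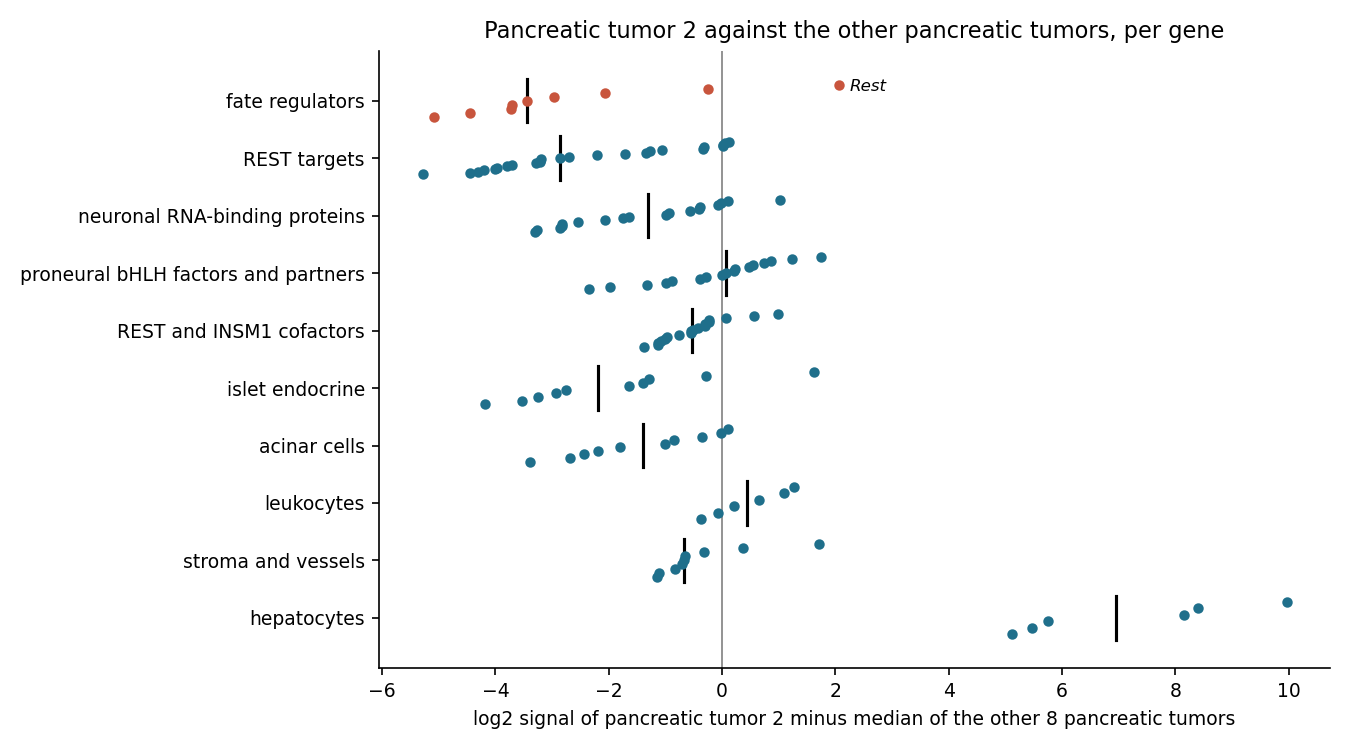
Log2 signal of pancreatic tumor 2 minus the median of the other 8 pancreatic tumors (horizontal), 1 point per gene, for the 9 fate regulators, 4 related gene lists and 5 lists of cell type markers (vertical); the black bar is the median of a list. REST targets and islet markers lie mostly below 0, hepatocyte markers lie between 5 and 10 above it, and Rest lies apart from the other 8 fate regulators.

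Genes that REST is known to repress were low in the same tumor. Of 25 measured REST targets, 18 had their lowest pancreatic value in tumor 2 and 0 their highest, with a median of -2.85 relative to the other 8. The share of all genes lowest in tumor 2, to be set beside this and the counts that follow, was 19.7%. The mean of the list was 5.81 in tumor 2 and 7.83 to 8.52 in the others. Among the 18 neuronal RNA-binding proteins 12 were lowest there (median -1.31), among 18 measured cofactors of REST and INSM1 9 were (median -0.52), and among 17 measured bHLH factors and partners 4 were lowest and 3 highest (median 0.07). Most islet markers were low in tumor 2 as well, with a mean of 8.69 against 9.81 to 10.89 in the other pancreatic tumors. Of the 10, 6 were at their lowest there and 1, Ttr, was at its highest (14.69). All 6 hepatocyte markers were highest in tumor 2. Tumors 3 and 4 had the next highest hepatocyte means, 11.79 and 12.09 against 14.41 in tumor 2, and the highest acinar means (11.44 and 10.62). The mean of the 9 genes was 6.05 in tumor 2, 8.70 in tumor 3 and 8.84 in tumor 4. Over the 8 pancreatic tumors other than tumor 2 it ranged from 8.30 to 9.14. The part of admixed liver or acinar tissue in the values of tumor 2 was not tested.

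Whether Rest ran against the other members was asked within the 9 pancreatic tumors, over 8 relations. Pearson's r with Rest was negative for all 8, from -0.83 for Insm1 to -0.36 for Neurod4. For Insm1 the exact two-sided permutation p was 0.0310 (0.112 adjusted over the 8), and Spearman's rho was -0.47 (p = 0.213, exact permutation). By rank the strongest relation was that of Neurod4, with a rho of -0.73 (exact permutation p = 0.0311, 0.249 adjusted), which was -0.62 (p = 0.115, exact permutation) without tumor 2. All these Neurod4 values lay below the array median. Myt1 (r = -0.82, p = 0.0360) and St18 (r = -0.75, p = 0.0419) came next by the exact permutation test, and 0 of the 8 passed after adjustment. Without the 2 tumors farthest from the median of Rest, numbers 2 and 5, r ranged from -0.29 to 0.51. Without tumor 2 alone it ranged from -0.25 to 0.47. By Pearson's r, the negative relations rest on tumor 2.

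The genes whose pattern over the 9 pancreatic tumors was most like that of Insm1, by Pearson's r among 12170 genes with a mean above the median of all probe sets, were Tulp3 (r = 0.98), Sorcs2 (0.98), Cul7 (0.98), Zfp9 (0.98) and Smarca4 (0.98). Those most like Rest were Stard8 (0.95), Casp12 (0.95), C2cd2 (0.95), Vamp5 (0.94) and Xaf1 (0.94). The first 5 were all lowest in tumor 2 and the second 5 all highest there. Of the 5 genes named for each, 0 were among the 5 most alike when tumor 2 was left out, and the likeness rests on that tumor.

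Beyond the 9 genes, most genes of the same pathways did not pass the test between sites. Of the 25 REST targets 3 were lower in the pancreatic tumors and 0 higher, with a median difference of -0.44. Over all genes 4.5% were called lower and 1.61% higher, to be set beside this and the list counts that follow. Scn2a, a sodium channel subunit, read 4.38 to 6.17 in pancreatic tumors (median 5.35) and 10.10, 7.04 and 10.37 in pituitary tumors 6, 7 and 8 (difference -3.82, adjusted p = 0.00304, limma). Cplx1, a synaptic vesicle protein, read 7.67 to 8.23 in pancreatic tumors and 12.74, 9.41 and 13.03 in pituitary tumors (difference -3.73, adjusted p = 0.00254, limma). For both, tumor 7 was nearest to the pancreatic range. Bdnf, a neurotrophin, read 5.75 to 8.23 in pancreatic tumors and 8.49, 10.13 and 7.61 in pituitary tumors (difference -2.45, adjusted p = 0.0298, limma), with its highest value in tumor 7. Scn2a and Cplx1 kept their call whichever tumor was left out, whereas Bdnf lost it in 5 of 12 cases. At an unadjusted p under 0.05, 8 REST targets were lower and 0 higher, against 14.4% and 9.36% of all genes, and without moderation 2 were called lower.

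No cofactor of REST and INSM1 was called among 18, with a median difference of 0.15. At an unadjusted p under 0.05, 2 were higher (Rcor2 and Sin3b) and 1 lower, against 9.36% and 14.4% of all genes, and 0 were called without moderation of the variance. The largest differences were -0.90 for Btrc, a ubiquitin ligase subunit that marks REST for degradation, 0.89 for Sin3b, 0.80 for Hmg20b, and 0.54 each for Ctdsp2 and Rcor2.

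Among 17 bHLH factors and partners 0 were called by limma (2 higher and 5 lower at an unadjusted p under 0.05, against 9.36% and 14.4% of all genes, and 0 without moderation), with a median difference of -0.05. Neurod6, a factor of cortical neurons, read 2.50 to 2.98 in pancreatic tumors and 8.63, 2.77 and 5.44 in pituitary tumors 6, 7 and 8 (difference -2.90, adjusted p = 0.0625, limma). As for Myt1l, its lowest pituitary value was in tumor 7 and lay inside the pancreatic range. Neurod6 was at or below the array median in all 9 pancreatic tumors and in 2 of the 3 pituitary tumors. Id4, an inhibitor of bHLH factors, differed by -2.57, and Tcf4, a partner of the proneural factors, by -1.85. Neurog3, the factor that starts the islet endocrine program in the mouse, differed by 1.44 and Insm2, a relative of Insm1, by 1.35. None of these 4 passed the test. Neurog3 was at or below the array median in 6 of the 9 pancreatic tumors and Insm2 in 5, and both were so in all 3 pituitary tumors.

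The neuronal RNA-binding proteins had the lowest median of the 4 lists, -0.97. Of the 18, 1 was called lower and 0 higher, against 4.5% and 1.61% of all genes. Without moderation of the variance 0 were called. At an unadjusted p under 0.05, 1 was higher and 9 were lower, against 9.36% and 14.4% of all genes. Celf2, of the same family as Celf3 and Celf4, read 7.37 to 9.50 in pancreatic tumors (median 9.10) and 10.72, 9.71 and 10.73 in pituitary tumors 6, 7 and 8 (difference -1.65, SE 0.41, adjusted p = 0.0400, limma). The groups did not overlap, but the call was lost in 8 of the 12 cases in which a tumor was left out, with adjusted p up to 0.197. The number of list genes called lower, 4 over all lists, fell to 2 when tumor 6 was left out and rose to 11 when tumor 7 was. Calls of lower signal over all 45037 probe sets moved in the same direction. They numbered 1552 in the main fit, 656 when tumor 6 was dropped and 2000 when tumor 7 was. The cause of this shift was not tested.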

How the data were processed

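Total RNA of 12 tumors was hybridized to Affymetrix MG-430_2.0 arrays, 1 per tumor. The authors deposited a table of log2 signal for each probe set and array, already normalized. The submitters' processing notes and the methods name Partek for normalization, and the methods name RMA for a further analysis. No source used here says which of these made the deposited values, and detection calls were not used here. Of 45101 probe sets, 64 controls were left out, 34945 of the rest pair with 1 gene symbol, 932 with several and 9160 with none. Array medians were 5.45 to 5.69, and the number of arrays limits the precision.

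The sites were compared with limma 3.58.1 in R 4.3.3 (lmFit and eBayes, Benjamini-Hochberg over 45037 probe sets, threshold 0.05, no covariates). A gene is represented by the brightest of its 1-symbol probe sets, by the mean over both groups. Relations of Rest used an exact permutation of pairings. Promoter windows and gene symbols came from RefSeq on GRCm38.p6. The fit was tested on simulated data. The text names all 9 genes with their probe sets, up to 5 genes per list by call or size of difference, up to 4 markers per cell type and the 5 genes most like Insm1 and Rest. Members and lists were chosen with earlier results of these data known.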

Additional observations from a re-analysis of the deposited data

Results flagged for a closer look

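Within the 9 pancreatic tumors, Dixon's ratio was taken on each of the 24 probe sets. It is the gap between the end tumor and the nearest tumor, as a share of the range. The 10 probe sets with the largest ratios, from 0.59 to 0.88, were picked out, and no significance level is attached to this cut. Just below them lay St18 1436793_at (0.56), St18 1455123_at (0.53) and Celf4 1426930_at (0.52), where tumor 2 was also the lowest. No chance rate is given for the count of 10, as several probe sets belong to 1 gene and are not independent. Tumor 2 was the distant one in 8 of the 10. It was the lowest at 6.56 on Insm1 1455865_at (nearest tumor 10.70), 6.83 on Neurod1 1426412_at (10.67), 7.52 on Neurod1 1426413_at (11.04), 4.74 on Myt1 1422773_at (7.37), 7.73 on Celf3 1452851_at (9.38) and 6.32 on Celf4 1426929_at (8.82). It was the highest at 8.15 on Rest 1428227_at (nearest tumor 5.67) and 5.29 on Rest 1425566_at (4.31). Tumor 2 also held all 6 hepatocyte markers at their highest. On Neurod4 1418054_at tumor 12 was the highest, at 4.56 (nearest tumor 3.78), still below its array median. On Myt1 1439365_at tumor 5 was the highest, at 6.27 (nearest tumor 3.72), while on Myt1 1422773_at the same tumor, at 7.81, lay among the others. None of these values has a replicate.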

How the results depend on the processing

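No paired analysis was possible because the pancreatic and pituitary tumors share no number in the labels. Neurod4 kept its call in every setting but the restriction to probe sets above the median signal, which removes its probe sets, so that 0 genes and 0 probe sets of the 9 genes were then called lower. The member genes called higher numbered 1 with array weights (St18) and 0 to 1 when a tumor was left out (1, Insm1, without pancreatic tumor 2). The member probe sets called higher numbered 2 with array weights, 0 to 2 with a tumor left out and 1 without pancreatic tumors 2, 3 and 4. Of the list genes 1 was called higher with quantile normalization and 4 with array weights, and 0 to 1 with a tumor left out. Called lower were 12 with array weights, 2 without moderation, 7 above the median, 10 by the mean of probe sets, 2 without tumors 10, 11 and 12, 2 without pituitary tumors 6 and 8, and 2 to 11 with a tumor left out. Calls over all probe sets, given in the next paragraph, also changed with the setting. These counts are therefore not read as results about the list genes.

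Over all probe sets 533 were called higher and 1552 lower in the pancreatic tumors. Array weights gave 1849 and 3179, the fit without tumors 10, 11 and 12 gave 214 and 571, and that without pituitary tumors 6 and 8 gave 61 and 488. Leaving out a tumor gave 172 to 886 higher and 656 to 2000 lower. Called lower were 967 without moderation and 926 of the 22518 tested above the median.

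Some differences turned sign. Those of Myt1 and Rest were near 0 with all 12 tumors, whereas that of Neurod1 1426413_at was 1.39. Myt1 1422773_at was 0.012 with quantile normalization, 0.10 with array weights and 0.19 without tumors 2, 3 and 4. With a tumor left out it lay between -0.40 and 0.18. The mean over both Myt1 probe sets, rather than 1422773_at alone, differed by 0.17. Rest 1425565_at was 0.092 with quantile normalization, 0.034 with median centring, 0.22 without tumors 10, 11 and 12 and 0.26 without pituitary tumors 6 and 8. With a tumor left out it lay between -0.24 and 0.13. The mean over all Rest probe sets, including those low on all arrays, differed by 0.054. Rest 1428227_at was 0.34 without tumors 10, 11 and 12, and Neurod1 1426413_at lay between -0.16 (without pituitary tumor 7) and 3.01 with a tumor left out. The cause of these turns was not tested. In the other settings 419 differences kept sign and side of the threshold, and 6 passed it that had not. With 3 pituitary tumors the interval of Insm1, -1.21 to 3.19, shows how wide a difference stays possible.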
